A study of Mus musculus with 6 samples.

Results

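The genes described are 8 regulators of signalling, several but not all of which are known to be transcribed in response to activity or stress. They include the salt-inducible kinase genes Sik1, Sik2 and Sik3, the polo-like kinase genes Plk2 and Plk3, and Sgk1, the serum- and glucocorticoid-regulated kinase gene. The pseudokinase gene Trib1 and the kinase gene Pim1 complete the list. The 8 genes were chosen by name, with earlier results of these data known. All 8 were found among the 55385 genes of the deposited tables, and all 8 were among the 18132 genes with enough reads to test. The cells were primary cortical neurons isolated from mouse embryos at day 18 and kept for 16 days in vitro, and every culture had received 2.5 uM AraC, an inhibitor of DNA synthesis, for 24 hours from day 2. The 3 libraries labelled control came from cells left untreated. The 3 libraries labelled activated came from cells given KCl, which depolarises the membrane, for 5 minutes and then, after washes, 30 minutes to recover before harvest. The KCl concentration is written as 50 mM in one field of the labels and as 50 uM in another. The comparison asked how the RNA of these genes differed after the brief depolarisation. The labels give no strain and leave unsaid whether a group's libraries came from separate cultures or embryos; if they did not, p-values reflect technical spread alone.

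Salt-inducible kinases belong to the AMPK-related family, are switched on by the kinase LKB1 and are inhibited by protein kinase A. They phosphorylate CRTC coactivators of CREB and class IIa histone deacetylases and so keep both in the cytoplasm. Sik1 is itself a CREB target. Plk2 and Plk3 are relatives of the mitotic kinase Plk1 that work outside mitosis, and in neurons Plk2 is induced by sustained activity and takes part in weakening synapses through regulators of Ras and Rap. Sgk1 resembles AKT, is activated by mTORC2 and PDK1, and is induced by glucocorticoids, osmotic stress and growth factors. Trib1 has a kinase fold with little catalytic activity and acts as a scaffold between the ubiquitin ligase COP1 and substrates such as C/EBP factors. Pim1 is a kinase that is active once it is made, so that its amount is set mainly through transcription, mRNA decay and protein turnover.

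Promoter sequence is shown for Plk2 and Plk3, the members with the largest decreases, and for Sik3, which did not pass the test. These 3 were picked by their letters. Only the Plk2 window held TGACGTCA, the full palindrome of the cAMP response element to which CREB binds. The Plk3 and Sik3 windows held the shorter core TGACG more than once, without the palindrome. The sequences are from RefSeq (GRCm38.p6), which had windows for 6 of the 8 members, all but Sik1 and Trib1. Each run is the 250 bases that end just before the annotated start, 5′ to 3′ on the gene's own strand, with TGACG on either strand in capitals; the full palindrome holds TGACG on both strands. The Plk2 window is chr13:110394794-110395043 (plus strand), the Plk3 window chr4:117133964-117134213 (minus strand) and the Sik3 window chr9:46012570-46012819 (plus strand).
Plk2: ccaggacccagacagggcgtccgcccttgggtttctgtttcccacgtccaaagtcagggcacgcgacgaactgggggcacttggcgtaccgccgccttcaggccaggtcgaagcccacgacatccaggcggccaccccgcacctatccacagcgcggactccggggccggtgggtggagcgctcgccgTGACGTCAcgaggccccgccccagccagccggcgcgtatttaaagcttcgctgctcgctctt
Plk3: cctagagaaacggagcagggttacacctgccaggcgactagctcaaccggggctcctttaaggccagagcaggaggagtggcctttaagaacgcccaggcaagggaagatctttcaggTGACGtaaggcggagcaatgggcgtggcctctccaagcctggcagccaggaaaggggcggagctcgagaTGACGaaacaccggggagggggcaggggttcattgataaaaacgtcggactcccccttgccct
Sik3: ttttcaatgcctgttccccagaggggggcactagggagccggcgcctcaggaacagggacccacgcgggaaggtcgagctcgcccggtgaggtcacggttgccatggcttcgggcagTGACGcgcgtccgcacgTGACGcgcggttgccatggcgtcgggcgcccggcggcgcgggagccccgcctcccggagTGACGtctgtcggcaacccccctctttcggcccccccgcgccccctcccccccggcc

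The Plk2 window held the full palindrome from 62 to 55 bases before the start, and 1.55% of all 32851 RefSeq windows of this length held one. Plk3 held TGACG 2 times, at 132 to 128 and at 63 to 59 bases before the start, without the palindrome. Sik3 held TGACG 3 times, at 133 to 129, 116 to 112 and 57 to 53 bases before the start. Of all windows 17.8% held TGACG on either strand and 3.90% held it more than once. The windows of Sik2 and Pim1 held none, and of the 6 windows of Sgk1, which has several annotated starts, 1 did. The CArG box that binds SRF (both strands; in 1.47% of windows) and the AP-1 element TGANTCA (6.75%) were not found in any member's window. The STAT-like palindrome TTCNNNGAA, present in 7.02% of all windows, was found in 1 window of Sgk1. The letters TATAAA, on either strand in 12.4% of all windows, were found in 2 windows of Sgk1. A match describes the letters only.

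Reads assigned to genes numbered from 17752711 to 32919975 per library, and between 131 and 8899 of them fell on a member. The libraries labelled activated went against their label in the best known activity-induced genes: of 16 rapid activity-induced transcription factor genes and Arc, 15 were lower there, none was higher and 1 did not pass, with Arc at 176 ± 11.8 and 48.9 ± 2.92 CPM, the read count scaled to library size (SD, n = 3 each). The 4 with the smallest p were Arc (log2 fold change −1.84), Npas4 (−1.84), Egr4 (−1.91) and Egr3 (−1.45). Groups are therefore named by their labels, and every direction rests on those being right. Among all tested genes 20.6% were lower and 16.2% higher. Of 12 excitatory neuron markers 7 fell and 1 rose, around a median log2 fold change of −0.32. Of 12 inhibitory neuron markers 7 fell and none rose, around a median of −0.45. The excitatory list summed to 2201 to 2310.4 CPM in labelled control and 2328 to 2514 CPM in labelled activated libraries. That sum rose although its median fell, since abundant genes weigh most in a sum. The inhibitory list summed to 2154 to 2233 against 1547 to 1744 CPM. All 11 tested astrocyte markers rose in the libraries labelled activated, from sums of 1209 to 1253 to sums of 1634 to 2037 CPM, as did 7 of 10 endothelial, mural and fibroblast markers (218 to 248 against 344 to 399 CPM) and 4 of 7 oligodendrocyte lineage markers (59.5 to 64.9 against 78.1 to 89.9 CPM). Of 10 microglia markers 6 passed as higher, but their sums overlapped (31.5 to 47.2 against 39.9 to 86.2 CPM). The 3 microglia markers with the smallest p lost their calls without control replicate 3 (Tyrobp at 0.53, C1qc at 0.54, Laptm5 at 0.54) and without activated replicate 3 (0.41, 0.47 and 0.34). C1qc and Laptm5 lost theirs in further alternatives, among them the DESeq2 Wald test (0.72 and 0.68). Gjb6, Sox10, Mog, Mag, P2ry12, Tmem119, Cldn5 and Cdh5 had too few reads to test, though none was at 0 in every library. In bulk RNA, fewer cells of a type and less RNA per cell cannot be told apart, and the part of these shifts in the values below was not tested. For that reason each member's change is also given with libraries scaled to the neuron markers, as are the medians of the paralogue and pathway lists. Other single genes have such a value only in part. The scaling used the mean log count of both neuron lists together, so that each gene weighed the same. That scaling moved the median log2 fold change of all tested genes from 0.04 to 0.37, so values under it are to be read against 0.37.

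Plk2, Plk3, Sik2, Sgk1 and Trib1 were lower in the libraries labelled activated, and none of the 8 genes was higher. Sik1, Sik3 and Pim1 did not pass the test (edgeR quasi-likelihood test, Benjamini-Hochberg adjusted p of 0.05 over all 18132 genes). Of all tested genes 36.8% were called, 20.6% lower and 16.2% higher. The groups of 3 libraries did not overlap for 6 of the 8 members, each time with labelled activated lower. They did not overlap for 49% of all tested genes, of which labelled activated was lower in 26.4% of all and higher in 22.6% of all. The median log2 fold change of the 8 members was −0.24, beside 0.04 for all tested genes. Only Plk2 stood out in size: it fell to 0.533 of its labelled control level, whereas the other 7 members lay between 0.726 and 0.894. Read the other way, the labelled control level was 1.88 times the labelled activated level for Plk2 and 1.12 to 1.38 times for the others. The count of 5 depended on single libraries, since 2 members were called lower without control replicate 1, activated replicate 1 or activated replicate 2, beside 17.4%, 17.3% and 17.1% of all tested genes, a share close to the members'. There were 3 without control replicate 2 or control replicate 3 (15.2% and 15.9% of all tested genes), and all 8 were called when activated replicate 3 was left out (21.2%). With libraries scaled to neuron markers Plk2 was the one member lower and Sik3 the one higher, where 3.02% of all tested genes were lower and 51.4% higher, and the members' median was 0.09.

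**Figure D1:**
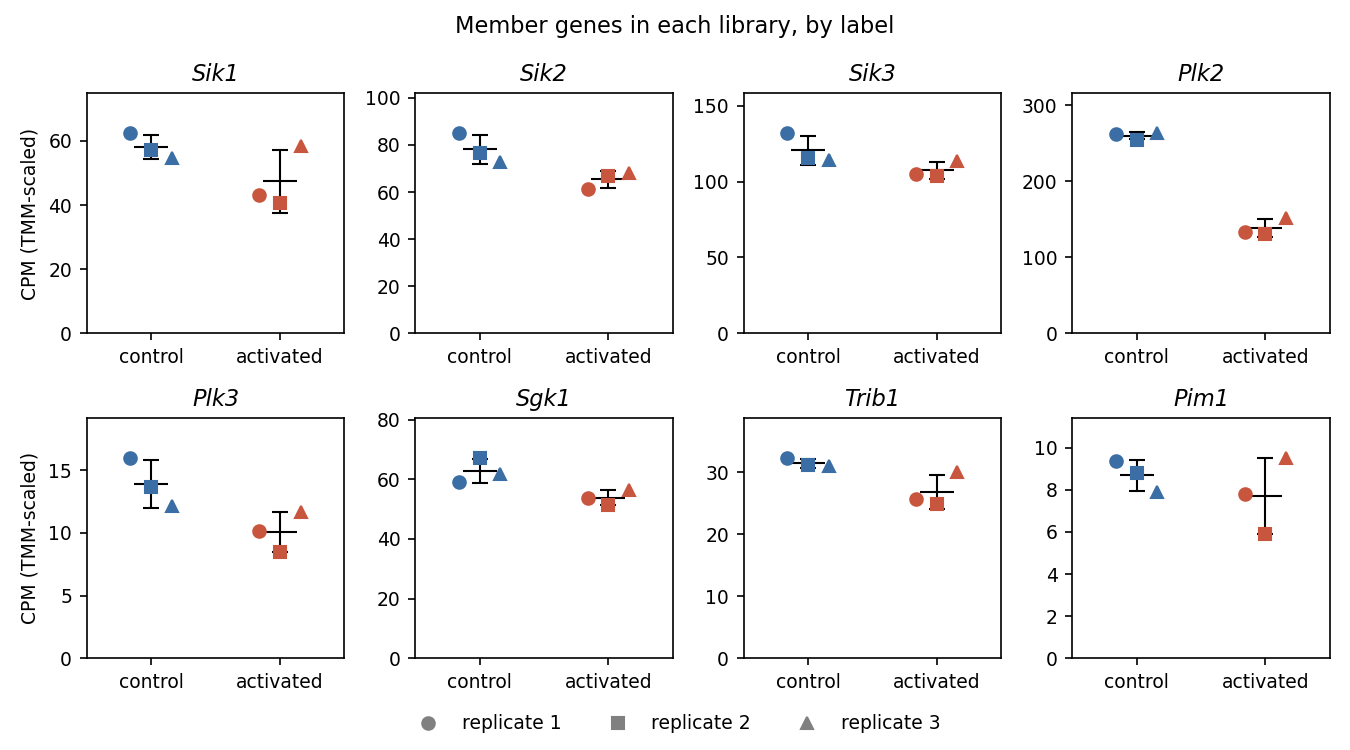
Level of each of the 8 genes in TMM-scaled CPM (vertical axis from 0) in the 3 libraries labelled control (blue) and the 3 labelled activated (red), with replicate numbers as symbols and black bars for mean ± SD. Plk2 went from 255 to 263 CPM down to between 130.4 and 152 CPM, and in all 8 genes activated replicate 3 was the highest of its group.

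Plk2 encodes the polo-like kinase of activity-dependent synaptic scaling. It stood at 263, 255 and 263 CPM in control replicates 1, 2 and 3, and at 133, 130.4 and 152 CPM in activated replicates 1, 2 and 3. The groups were far apart, and the labelled control libraries differed by little among themselves, with a coefficient of variation of 1.78% against 8.61% in labelled activated libraries. This was a decrease of −0.91 ± 0.07 in log2 units (SE; edgeR quasi-likelihood adjusted p = 2.94e-06), with a 95% interval of −1.05 to −0.76. Only 0.436% of tested genes had a lower log2 fold change. Plk2 (ENSMUSG00000021701.8, chromosome 13, 110395046 to 110400844, plus strand, mm10) passed in each of the 15 alternatives run, at values from −0.99 without activated replicate 3 to −0.58 under the neuron marker scaling. A ratio within a library does not depend on how libraries are scaled. Plk2 had 0.664, 0.688 and 0.742 reads for every read of the 7 other members together in control replicates 1, 2 and 3. The same ratio was 0.434, 0.432 and 0.437 in activated replicates 1, 2 and 3, below all labelled control values. This ratio was chosen after its values were seen and was not tested.

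Plk3, a stress-responsive relative of Plk2, is a short gene (ENSMUSG00000028680.14, chromosome 4, 117128655 to 117133963, minus strand). Its level was 16.0, 13.7 and 12.2 CPM in control replicates 1, 2 and 3 and 10.1, 8.48 and 11.7 CPM in activated replicates 1, 2 and 3. The groups did not overlap, but control replicate 3 and activated replicate 3 lay close together. Plk3 fell by a log2 fold change of −0.46 ± 0.13 (SE), with an edgeR adjusted p of 0.0133. The call was lost without control replicate 1 (−0.34), without activated replicate 2 (−0.34) and under the neuron marker scaling (−0.14, edgeR adjusted p = 0.372). Per length, Plk2 exceeded Plk3 by 10.6 ± 1.46 times in labelled control and 7.81 ± 0.746 times in labelled activated libraries (SD, n = 3). The ratio was 9.27, 10.5 and 12.2 in control replicates 1, 2 and 3 against 7.40, 8.67 and 7.35 in activated replicates 1, 2 and 3. The groups did not overlap, and the log2 difference of −0.44 had a two-sided exact permutation p of 0.1 (0.2 after Benjamini-Hochberg adjustment over the 2 ratios tested), the smallest that 3 against 3 libraries can give.

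Among the salt-inducible kinases only Sik2 passed. Sik2, the form known to restrain CRTC1 in neurons, stood at 84.8, 76.8 and 72.7 CPM in control replicates 1, 2 and 3 and at 61.2, 67.0 and 68.1 CPM in activated replicates 1, 2 and 3. All labelled activated values were lower than all labelled control values, and the log2 difference was −0.25 ± 0.07 (SE), with an edgeR adjusted p of 0.0136. The call was lost without control replicate 1 (−0.18) or activated replicate 1 (−0.21), and the value turned to 0.080 with no call under the neuron marker scaling. Exons of Sik2 (ENSMUSG00000037112.16, chromosome 9, 50892801 to 51009073, minus strand) overlap those of Ppp2r1b on the other strand over 1429 bases. Reads were counted by strand, and forward-strand reads made up 0.147% of both strands at Sik2.

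Sik1, the form whose own promoter is driven by CREB, stood at 62.3, 57.2 and 54.7 CPM in control replicates 1, 2 and 3. In activated replicates 1, 2 and 3 it stood at 43.0, 40.5 and 58.5 CPM. Activated replicates 1 and 2 were below every labelled control library, while activated replicate 3 lay among them. The log2 fold change of −0.29 ± 0.11 (SE) did not pass (edgeR adjusted p = 0.0546), and its unadjusted 95% interval was −0.52 to −0.05. Without activated replicate 3 the value was −0.48 (edgeR adjusted p = 8.05e-05). Sik1 (ENSMUSG00000024042.7, chromosome 17, 31844250 to 31855804, minus strand) also passed with unstranded counts (−0.32), with every gene kept (−0.31), with library totals as the only scaling (−0.36), by the likelihood-ratio test of edgeR (−0.29) and by the Wald test of DESeq2 (−0.29), and its value was 0.037 under the neuron marker scaling.

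Sik3 acts in metabolism and in the control of sleep need. Its values were 132, 116 and 114 CPM in control replicates 1, 2 and 3 and 105, 104 and 114 CPM in activated replicates 1, 2 and 3. The groups did not overlap by a narrow margin, from 113.8 to 114.5 CPM. The log2 fold change of −0.17 ± 0.07 (SE) did not pass (edgeR adjusted p = 0.0777). Sik3 (ENSMUSG00000034135.15, chromosome 9, 46012820 to 46224194, plus strand) was called lower without activated replicate 3 (−0.21), with total counts only (−0.23) and with no low-count filter (−0.18), and higher under the neuron marker scaling (0.17, edgeR adjusted p = 0.0476). The ratio of Sik1 to the mean of Sik2 and Sik3 per length, which does not depend on scaling, was 1.05, 1.09 and 1.07 in control replicates 1, 2 and 3. It was 0.948, 0.870 and 1.18 in activated replicates 1, 2 and 3. The spread was wider in the labelled activated libraries and enclosed the labelled control values, with a log2 difference of −0.11 (two-sided exact permutation p = 0.4, also after the same adjustment). With 3 libraries a group this test cannot go below 0.1, so it cannot show whether Sik1 differed from the other forms. Leaving out activated replicate 3 gave a log2 difference of −0.24, and leaving out activated replicate 2 gave −0.021.

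Sgk1, the kinase that raises surface amounts of ion channels and transporters by restraining NEDD4-2, changed by a small amount. It stood at 59.2, 67.0 and 61.7 CPM in control replicates 1, 2 and 3 and at 53.7, 51.3 and 56.5 CPM in activated replicates 1, 2 and 3. The groups did not overlap, and both were tight, with coefficients of variation of 6.39% and 4.86%. On the log2 scale the change was −0.22 ± 0.07 (SE), and the edgeR adjusted p was 0.0223. With single libraries left out, the call was lost without control replicate 2 (−0.15), control replicate 3 (−0.23), activated replicate 1 (−0.22) or activated replicate 2 (−0.18). The value turned to 0.11 with no call under the neuron marker scaling. Sgk1 (ENSMUSG00000019970.15, chromosome 10, 21882184 to 21999903, plus strand) has 13 annotated transcripts from the several starts named above, and counts per gene do not separate them.

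Trib1, the scaffold that brings C/EBP factors to COP1, stood at 32.3, 31.1 and 30.9 CPM in control replicates 1, 2 and 3. In activated replicates 1, 2 and 3 it stood at 25.7, 24.8 and 30.0 CPM. The labelled control libraries were nearly alike (coefficient of variation 2.25%), and activated replicate 3 came close to them without overlap. Trib1 fell by a log2 fold change of −0.22 ± 0.08 (SE), with an edgeR adjusted p of 0.0409, just inside the threshold. The call was lost in more alternatives than that of any other member, among them without control replicate 1 (−0.20), 2 (−0.22) or 3 (−0.23) and without activated replicate 1 (−0.20) or 2 (−0.17), with the DESeq2 Wald test (−0.23) and with a filter of 1 CPM in 3 libraries (−0.19). Under the neuron marker scaling Trib1 (ENSMUSG00000032501.9, chromosome 15, 59648350 to 59657099, plus strand) turned to 0.10 with no call.

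Pim1, the kinase that works downstream of JAK and STAT signalling on survival and protein synthesis, was the rarest member and did not pass. It stood at 9.36, 8.81 and 7.89 CPM in control replicates 1, 2 and 3, and at 7.80, 5.89 and 9.50 CPM in activated replicates 1, 2 and 3. The groups overlapped, and the labelled activated libraries held both the lowest and the highest value, with a coefficient of variation of 23.4% against 8.54% in labelled control libraries. Its log2 difference was −0.16 ± 0.15 (SE), with an edgeR adjusted p of 0.430 and a 95% interval of −0.49 to 0.17. The value was 0.015 without activated replicate 2, −0.37 with a call without activated replicate 3 (edgeR adjusted p = 0.0468), and 0.16 with no call under the neuron marker scaling. Exons of Pim1 (ENSMUSG00000024014.8, chromosome 17, 29490753 to 29496112, plus strand) overlap the antisense gene Gm26885 over 488 bases, and forward-strand reads made up 1.22% of both strands at Pim1.

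**Figure D2:**
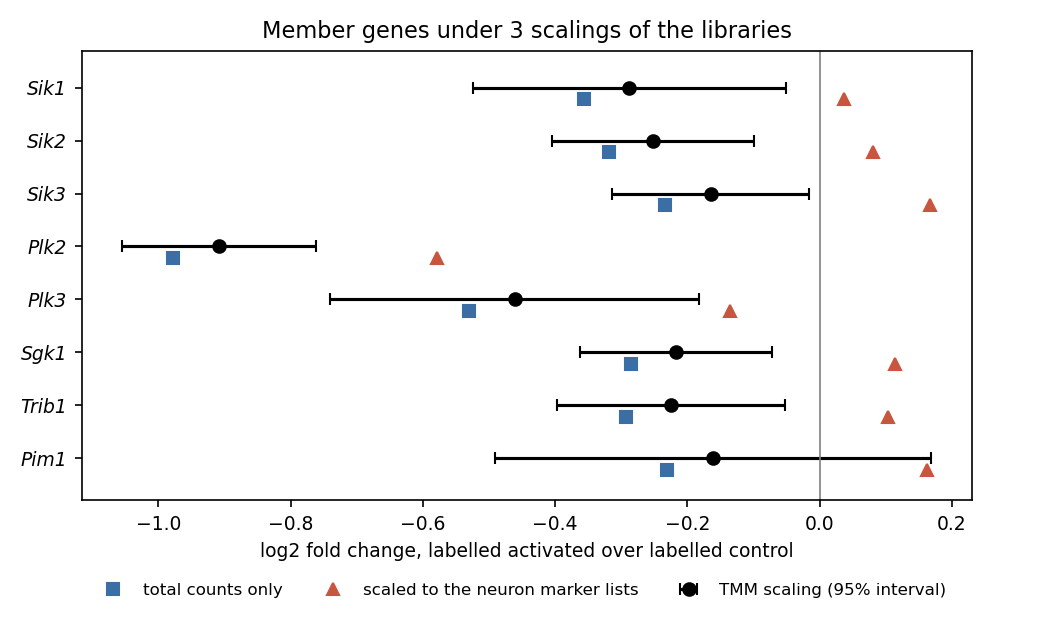
Log2 fold change of each gene (horizontal axis, labelled activated over labelled control) with TMM scaling and its unadjusted 95% interval (black), with total counts only (blue squares) and scaled to neuron markers (red triangles). Plk2 lay between −0.98 and −0.58 under the 3 scalings, Plk3 stayed negative, and the 6 others were positive under the neuron marker scaling, where the median of all genes was 0.37.

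Activated replicate 3 had the highest value of its group for all 8 members, and for 39.1% of all tested genes. Activated replicate 2 had the lowest value for 7 of the 8, and for 39.2% of all tested genes. Among labelled control libraries, replicate 1 was the highest for 6 members and replicate 3 the lowest for 6, against 34.1% and 30.5% of all tested genes. Reads that mapped outside annotated exons on the counted strand were 32.1%, 37.3% and 28.3% of all reads in activated replicates 1, 2 and 3, and 28.4%, 25.1% and 29.6% in control replicates 1, 2 and 3. Activated replicate 2, lowest for 7 members, thus had the largest share of such reads. Its part in the values was not tested.

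Per kilobase of exon (CPM per kb), Plk2 was the most abundant member in both groups, at 57.9 ± 1.03 in the labelled control group and 30.8 ± 2.65 in the labelled activated group (SD, n = 3). Sik3 (12.9 ± 1.03), Sgk1 (12.8 ± 0.816) and Sik1 (11.3 ± 0.750) followed in labelled control libraries, and neighbours in that order overlapped. Sik2 (8.19 ± 0.650) lay below them without overlap. Plk3 (5.51 ± 0.754) and Trib1 (5.03 ± 0.113) overlapped each other, and Pim1 (2.58 ± 0.221) was lowest without overlap. In labelled activated libraries the order was the same except that Trib1 (4.29 ± 0.444) stood above Plk3 (3.99 ± 0.630), again with overlapping values. Lengths are of all annotated exons of a gene together, so genes with rarely used long exons read low on this scale.

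**Figure D3:**
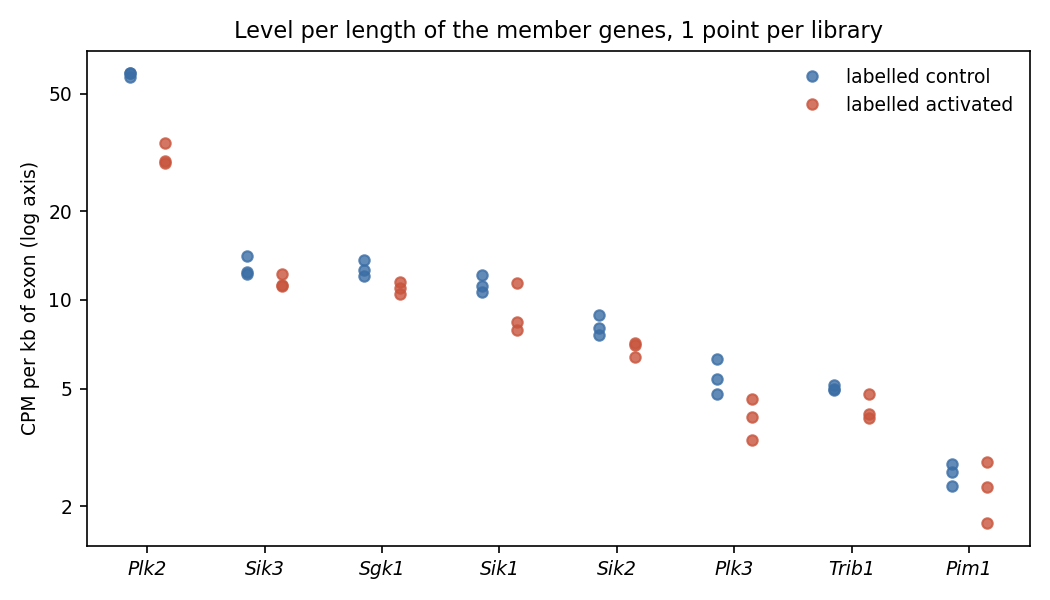
Level per length of the 8 genes (CPM per kb of exon, log axis) with 1 point per library, labelled control in blue and labelled activated in red. Plk2 lay at 56.7 to 58.6 in labelled control and 29.0 to 33.9 in labelled activated libraries, above every other member in both groups.

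The paralogues of these genes were followed in the same fit. Of 9 tested paralogues 3 fell and none rose, beside 20.6% lower and 16.2% higher among all tested genes. The median log2 fold change of the paralogues was −0.09, which became 0.24 when scaled to neuron markers. Sgk2 had at most 2 reads in any library and was not tested. Both other PIM kinases fell although Pim1 did not pass. Pim3 stood at 32.3, 45.6 and 37.9 CPM in control replicates 1, 2 and 3 and at 15.7, 15.8 and 18.7 CPM in activated replicates 1, 2 and 3. The groups were far apart, and the log2 change of −1.20 ± 0.11 (SE; edgeR adjusted p = 1.61e-05) was larger in size than that of any of the 8 members. Mean levels of Pim2 in the labelled control and activated groups were 30.5 ± 2.43 and 20.7 ± 1.38 CPM (SD, n = 3), and its log2 change was −0.56 ± 0.08 (SE; edgeR adjusted p = 0.000223). Pim3 exceeded Pim1 per length by 4.77, 7.18 and 6.66 times in control replicates 1, 2 and 3 and by 2.79, 3.72 and 2.72 times in activated replicates 1, 2 and 3. These groups did not overlap, and the ratio, chosen after its values were seen, was not tested. Trib2, which shares the COP1-binding role, stood at 61.1, 62.5 and 64.1 CPM in control replicates 1, 2 and 3 and at 49.3, 47.9 and 50.9 CPM in activated replicates 1, 2 and 3. It fell (−0.34 ± 0.06; edgeR adjusted p = 0.000699) in groups that did not overlap, and its call was lost under the neuron marker scaling (−0.01). The Trib2 to Trib1 ratio per length was 2.73 to 2.98 in labelled control and 2.45 to 2.78 in labelled activated libraries, with overlap.

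The paralogues that did not pass were Plk1, the mitotic kinase gene, at 0.915 ± 0.168 and 1.47 ± 0.552 CPM (log2 fold change 0.71), and Plk4, the centriole kinase gene, at 3.27 ± 0.136 and 4.15 ± 0.664 CPM (0.33). Trib3, the stress-induced tribbles gene, stood at 1.46 ± 0.167 and 1.65 ± 0.425 CPM (0.19). Stk40 (−0.09), Plk5 (−0.19) and Sgk3 (edgeR adjusted p = 0.985, means of 12.2 CPM in both groups) did not pass either. Plk1 was called higher without activated replicate 1 (0.87) or activated replicate 3 (0.82), with the edgeR likelihood-ratio test (0.71), with no low-count filter (0.69) and under the neuron marker scaling (1.05). Plk4 was called higher without activated replicate 2 (0.45) and under the neuron marker scaling (0.66). Stk40 was called higher under that scaling (0.24), where Plk5 turned to 0.14. Trib3 turned to −0.049 without activated replicate 3, and Plk5 to 0.071 without control replicate 2.

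**Figure D4:**
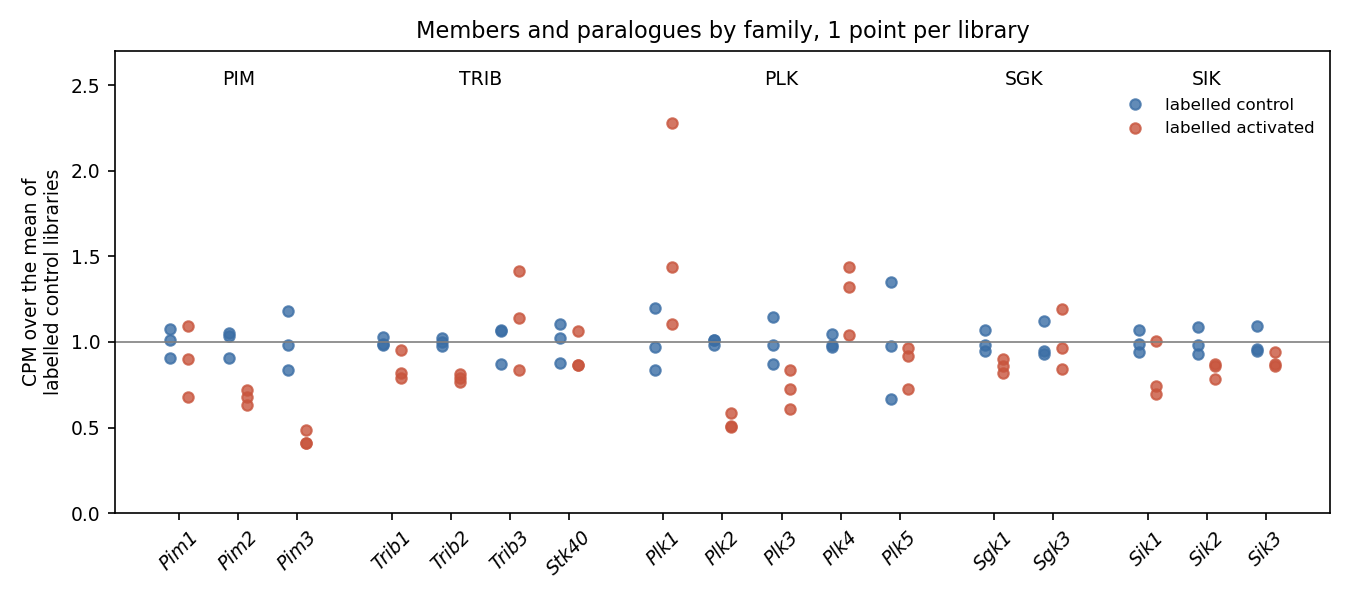
Level of members and tested paralogues by family, each library's CPM divided by the mean of the 3 labelled control libraries of that gene (vertical axis from 0; grey line at 1), labelled control in blue and labelled activated in red. Pim2, Pim3, Trib1, Trib2, Plk2, Plk3, Plk5, Sgk1, Sik2 and Sik3 lay below 1 in all 3 labelled activated libraries. Plk1 and Plk4 lay above 1 in all 3, though neither passed the test.

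Other genes of these pathways were read from lists written down by role. The counts of each list are to be read against all tested genes, of which 20.6% were lower and 16.2% higher. Of 21 genes for LKB1, its cofactors and AMPK-related kinases 13 fell and 1 rose, and the remaining 7 did not pass; the median log2 fold change of −0.22 became 0.11 when scaled to neuron markers. Nuak2, a stress-induced AMPK relative, was the one that rose. The labelled control group averaged 11.0 ± 0.146 CPM and the labelled activated group 18.5 ± 0.793 CPM (SD, n = 3), a log2 difference of 0.75 ± 0.09 (SE; edgeR adjusted p = 4.45e-05). Cab39, the scaffold that activates LKB1, fell (−0.49), as did Brsk2, a kinase of neuronal polarity (−0.32), and the AMPK subunit gene Prkab2 (−0.37). Of 15 SIK targets and regulators 9 fell and 1 rose, around a median of −0.22 (0.11 under the neuron marker scaling). The protein kinase A catalytic genes Prkaca (−0.50) and Prkacb (−0.60), the phosphatase gene Ppp2ca (−0.73) and Ywhaz (−0.66), a 14-3-3 protein gene, fell. These 4 kept negative signs and their calls under the neuron marker scaling, whereas Prkab2 lost its call (−0.04) and Brsk2 turned to 0.02.

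Of 14 PLK2 and PLK3 partners 5 fell and none rose, beside 20.6% lower and 16.2% higher among all tested genes. The median of these partners was −0.20 (0.13 under the neuron marker scaling). The small GTPase gene Rap2a went from 116 ± 11.8 to 83.9 ± 6.75 CPM (−0.47 ± 0.08; edgeR adjusted p = 0.000561), and the Rap activator gene Rapgef2 fell too (−0.21). Rap2a lost its call under the neuron marker scaling (−0.14), and Rapgef2 turned positive there with no call (0.12) and lost its call without control replicate 1 (−0.18).

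Of 19 SGK pathway genes 11 fell and 2 rose, around a median of −0.20 (0.14 under the neuron marker scaling). Pdpk1, which encodes the activating kinase PDK1, fell (−0.31), as did the kinase gene Gsk3b (−0.47), the transcription factor gene Foxo1 (−0.44) and Per1, a clock gene that also responds to glucocorticoids and CREB (−0.52). Of 11 TRIB pathway genes 5 fell and 2 rose, around a median of −0.20 (0.13 under the neuron marker scaling). The MAP kinase kinase genes Map2k1 (−0.52) and Map2k4 (−0.40) fell. Cebpd, of the C/EBP family, rose from 9.87 ± 0.351 to 16.6 ± 2.75 CPM (0.76 ± 0.12; edgeR adjusted p = 0.00025). Of 17 PIM pathway genes 6 fell and 2 rose, beside 20.6% lower and 16.2% higher among all tested genes. The median of the PIM list was −0.07 (0.26 under the neuron marker scaling). The cell cycle inhibitor gene Cdkn1b (−0.45) and Myc (−0.46) fell, and the cytokine receptor gene Il6st (0.32) and the Janus kinase gene Tyk2 (0.37) rose. Under the neuron marker scaling Pdpk1 turned to 0.03, and Gsk3b (−0.13), Foxo1 (−0.11), Per1 (−0.19), Map2k4 (−0.06), Cdkn1b (−0.12) and Myc (−0.13) lost their calls.

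Genes with the profile most like each called member were sought among 9872 genes with a symbol and a mean log2 CPM of at least 3, by the root mean square difference of centred log2 CPM over the 6 libraries. Egr1, an immediate early transcription factor gene, was nearest to Plk2 (0.03), followed by the heat shock cochaperone gene Dnajb1 (0.05) and Spty2d1 (0.06). Egr1 averaged 289 and 150.2 CPM in the labelled control and activated groups, a log2 fold change of −0.94 beside −0.91 for Plk2. Plk3 was nearest to the replication clamp gene Pcna (0.06), Per1 (0.07) and the mitochondrial gene Higd2a (0.08). Sik2 was nearest to Nol12 (0.02), Syt6 (0.03) and Prpf4 (0.03), Sgk1 to AU022252 (0.02), Ppp4c (0.02) and Gtpbp2 (0.02), and Trib1 to Acot13 (0.02), Spata13 (0.02) and Polr1c (0.03). With 6 libraries and 9872 genes, close profiles are common for small changes, and these are descriptions.

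The members differed in gene span and in 3′ UTR features. Plk3, Pim1, Plk2, Trib1 and Sik1 span 5.31, 5.36, 5.80, 8.75 and 11.6 kb, whereas Sik2, Sgk1 and Sik3 span 116, 118 and 211 kb. The median log2 fold change of all tested genes was 0.10 under 10 kb, −0.0035 from 10 to 30 kb, where Sik1 lies, 0.026 from 30 to 100 kb and 0.04 over 100 kb, and the shares called lower were 16.4%, 24.7%, 22.6% and 20.5%. The pentamer ATTTA, the core of the AU-rich elements through which short-lived mRNAs are degraded, was counted in the 3′ UTR of the GENCODE transcript with the longest coding sequence. It occurred 5 times in Pim1, 4 in Plk3, 3 in Sik1, 3 in Sgk1 and 2 in Plk2, and not at all in Sik2, Sik3 and Trib1. The 3′ UTRs counted ran from 332 bases in Plk3 to 2398 in Trib1, with 558 in Sik2, so raw counts are not alike in reach. The median count over 20633 genes with a 3′ UTR was 1. Per base of 3′ UTR, Plk3, with 4 in 332 bases, exceeded 99.2% of those genes. The nonamer TTATTTATT, present in 6.91% of genes, occurred 3 times in Pim1, 2 times in Plk3 and once in Plk2. Of the 3 genes with the nonamer, Plk2 and Plk3 were called lower and Pim1 did not pass. Sik2, Sgk1 and Trib1 were called lower without it. Whether these letters bear on the changes was not tested.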

How the data were processed

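The 6 samples are total RNA of mouse primary cortical neurons, from which ribosomal RNA had been depleted before strand-specific libraries were read in pairs of 150 bp, per the labels' protocols. The submitters' processing notes name STAR 2.5.2b, mm10 and edgeR; the annotation release and the settings are not given in the sources used here. The deposited values are counts per gene, unstranded and for each strand, and the reverse-strand column was used because 4.05% to 4.29% of stranded gene reads lay on the other strand. Lines naming no gene (42.3% to 50.7% of reads) entered neither library sizes nor tests. Names, positions and exon lengths are those of GENCODE mouse release 21 (GRCm38), which held 55144 of the 55385 identifiers.

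Low-count genes were removed by filterByExpr (a minimum count of 10 and a total of 15), and the rest were scaled by TMM and fitted in edgeR 4.0.16 under R 4.3.3 with group as the sole term, by its quasi-likelihood test with Benjamini-Hochberg adjustment at 0.05. Standard errors were taken from the fold change and its F statistic, and intervals are at the 95% level. Log2 CPM for profiles had a prior count of 2. Two-group ratios were tested by exact permutation. Intervals and SDs over 3 libraries a group limit the precision. Each library was left out in turn, and other runs used unstranded counts, other filters, a block for the replicate number, the likelihood-ratio test of edgeR, the Wald test and size factors of DESeq2 1.42.0, total counts, and libraries scaled to neuron markers. Pairs of libraries in a group differed by more than counting noise (mean chi-square per gene 4.87 to 13.2), so none was a repeat reading of another. This cannot show whether they came from separate RNA or cultures. The procedure was tested on simulated counts, where 53 of 67 genes changed 1.5 times were called, and 7 unchanged genes were called too. Every simulated gene had the same spread beyond counting noise. Recovery for more variable genes, such as Sik1 and Pim1 in labelled activated libraries, was therefore not simulated. Smaller changes, such as those of all members but Plk2, were not simulated. Few genes were changed there, so the simulation does not bear on the choice of scaling.

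The members and lists were chosen with earlier results of these data known. All members and tested paralogues are named. From each pathway list the 4 genes with the smallest p past the threshold are named, apart from 3 genes that are not reported here, as are the 3 nearest profiles of each called member. Cell type lists are given by counts and sums, and the neuron lists also by medians. Plots used matplotlib 3.10.9.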

Additional observations from a re-analysis of the deposited data

How the results depend on the processing

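Plk2 kept its direction and its call in all 15 alternatives, and no other member did. Of the 120 recomputed log2 fold changes of the 8 members, 85 kept their direction and side of the threshold. Under the neuron marker scaling 6 members turned positive, at 0.037 for Sik1, 0.080 for Sik2, 0.17 for Sik3, 0.11 for Sgk1, 0.10 for Trib1 and 0.16 for Pim1, and Plk3 lost its call at −0.14. The split of all calls moved with scaling: 55.9% of 6678 were lower in the main comparison, 68.7% of 6665 with total counts and 5.54% of 9868 under the neuron marker scaling. Sik1 gained a call with total counts (−0.36), the DESeq2 Wald test (−0.29), the likelihood-ratio test (−0.29), no low-count filter (−0.31) and unstranded counts (−0.32), and Sik3 with total counts (−0.23) and no low-count filter (−0.18). Trib1 lost its call with the DESeq2 Wald test (−0.23) and with the 1 CPM filter (−0.19).

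Same-numbered libraries of the groups did not deviate together (correlations of −0.01, −0.18 and −0.21 for numbers 1, 2 and 3). With 3 libraries a group, that cannot settle whether the numbers pair the samples. With the replicate number as a block 5278 genes were called, and Sgk1 (−0.22, edgeR adjusted p = 0.0558) and Trib1 (−0.23, edgeR adjusted p = 0.0697) were not.

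With single libraries left out, the values ranged from −0.48 to −0.18 for Sik1, −0.30 to −0.18 for Sik2, −0.21 to −0.089 for Sik3, −0.60 to −0.34 for Plk3, −0.26 to −0.15 for Sgk1, −0.32 to −0.17 for Trib1 and −0.37 to 0.015 for Pim1, and the count of calls from 4922 to 7212. Pim1 had the fewest reads of the 8 members, 131 to 303 per library. The causes of these shifts were not tested.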
